A study of Mus musculus with 4 samples.

Results

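The transcripts of 7 matrix metalloproteinases (Mmp2, Mmp3, Mmp8, Mmp9, Mmp11, Mmp13 and Mmp14) and 3 tissue inhibitors of metalloproteinases (Timp1, Timp2 and Timp3) were examined in metastasis-bearing mouse lungs. These 10 genes were chosen by name among the 56748 genes of the count table, and all 10 passed the expression filter, which left 15320 tested genes. Both groups were female BALB/cJ mice, 7 weeks of age at injection, that had received 4T1-FLuc cells through the tail vein. 4T1 is a mouse triple-negative breast cancer (TNBC) line, here carrying firefly luciferase. The saline group (2 samples) received no active agent and is labelled PBS control. The ADC/cmLumiOpto group (2 samples) received for 3 weeks the antibody-drug conjugate (ADC) CD276-DM1, in which an antibody to the surface protein CD276 delivers the tubulin poison mertansine, together with cmLumiOpto. The latter is a gene therapy carried by an antibody-targeted exosome-associated AAV. It places a light-gated channel in the mitochondria of cancer cells and a luciferase in their cytoplasm. The luciferase makes the light from the substrate ViviRen, which was given as part of cmLumiOpto. The labels give 16 mg/kg of ADC and write cmLumi-Olap for the gene therapy, whereas the study's methods give a lower ADC dose and more samples per group. Neither agent alone was sequenced, so the parts of the ADC and of cmLumiOpto cannot be told apart. The labels speak of tumor cells taken from the lung and the methods of dissociated lung tissue. Transcripts of alveolar type 2 cells (Sftpc, 174 to 4321 CPM, normalized counts scaled to the library size) and of epithelial keratin (Krt8, 1117 to 1543 CPM) were both present in every sample. Krt8 is made by 4T1 cells and also by airway epithelium.

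Matrix metalloproteinases are zinc-dependent endopeptidases that cleave collagens, other matrix proteins, and many growth factors and receptors. Most are secreted as inactive proenzymes and are activated by removal of a propeptide. The gelatinases (MMP2 and MMP9) cleave denatured collagen and basement membrane collagen, the collagenases (MMP8 and MMP13) cleave intact fibrillar collagen, and the stromelysin MMP3 has broad substrates and activates other proenzymes. MMP14 is anchored in the plasma membrane and activates the MMP2 proenzyme in a complex with TIMP2. TIMPs bind the active site of the enzymes, so that transcript levels on either side do not give the activity of the protease. In breast cancer metastasis, much of the protease is made by fibroblasts, macrophages and neutrophils rather than by the cancer cells.

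Sequencing depth was between 15263375 and 19675436 counts per sample. The normalization factors were between 0.973 and 1.04. A floor of 3 counts equals 0.152 to 0.197 CPM, and it covers counting error only. Replicates correlated across genes with a Pearson's r of 0.973 in saline and 0.970 after ADC/cmLumiOpto, where genes are not independent replicates. The methods call the samples biological, and the labels only number them within a group and give no batch or date. For 2 samples per group, the smallest two-sided p of an exact permutation test is 0.333.

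Of the 10 genes, 3 were higher and 7 lower after ADC/cmLumiOpto by their log2 fold change, with a median of -0.445 against 0.0277 over all tested genes. By the quasi-likelihood test of edgeR (Benjamini-Hochberg adjustment over all tested genes), 0 of the 10 reached an adjusted p under 0.05, as for 0% of all tested genes. Mmp2 and Mmp3 had the smallest adjusted p of the 10, 0.116. An unadjusted p under 0.05 was found for 5 of the 10, against 23.2% of all tested genes. Mmp2, Mmp3, Mmp14 and Timp3 were lower (12.2% of all tested genes) and Mmp13 was higher (11.0%). The samples of the groups did not overlap for 7 of the 10, against 57.0% of all tested genes. Of the 7, 6 were lower (28.8% of all tested genes) and 1 was higher (28.1%). DESeq2 called 3 of the 10, Mmp2, Mmp3 and Mmp14, as lower at an adjusted p under 0.05, where it called 8.83% of all tested genes, 5.05% as lower. The edgeR exact test called Mmp2 and Mmp3 as lower, and 7.64% of all tested genes, 3.68% as lower. Without the expression filter, edgeR's quasi-likelihood test called 8.84% of 25563 genes and 7 of the 10, with Mmp2, Mmp3, Mmp14 and Timp3 lower (4.05% of genes) and Mmp8, Mmp9 and Mmp13 higher (4.79%). In that fit the SEs of the 10 ran only from 0.191 to 0.316, against 0.152 to 0.936 with the filter. That of Mmp8 was 0.215 instead of 0.936, so these calls do not reflect the spread of its samples. With the replicate number as a block the quasi-likelihood test called Mmp2 and Mmp3, and 3.96% of all tested genes. In bulk samples, fewer cells of a type and less RNA per cell cannot be told apart, and this holds for each difference below.

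**Figure D1:**
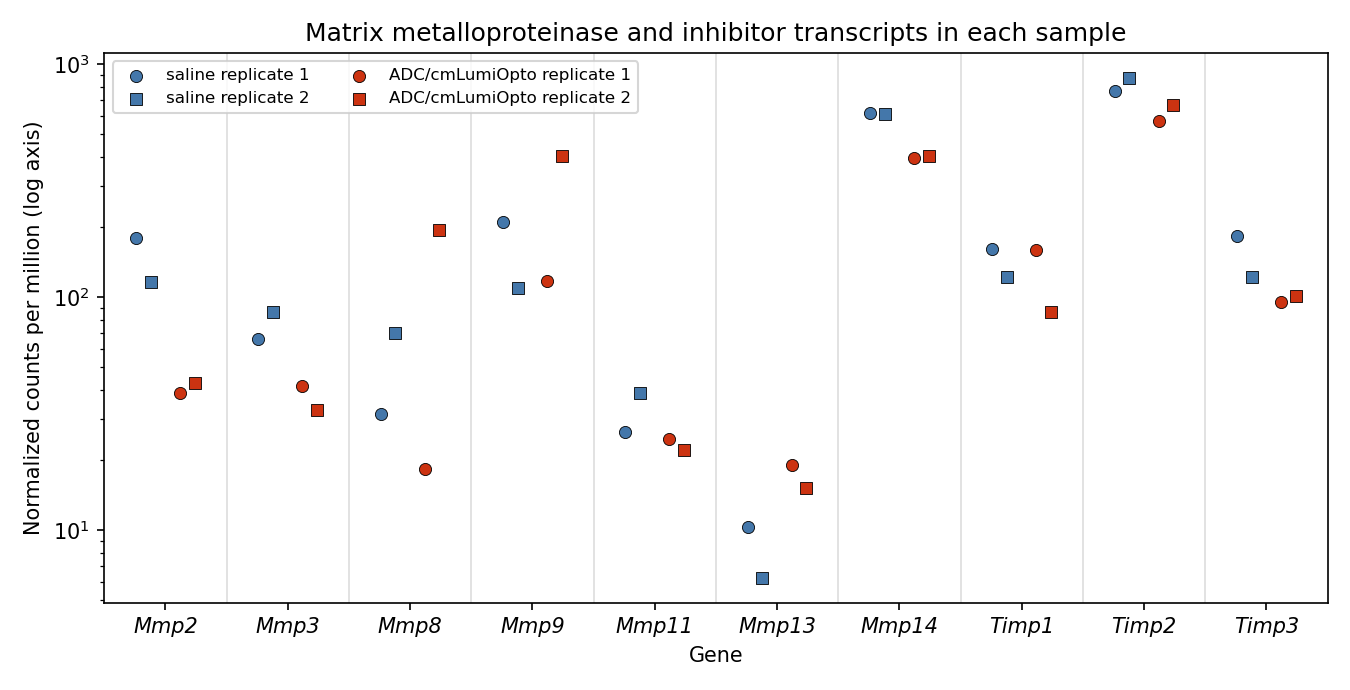
CPM (normalized counts, log axis) of the 10 genes in each sample; blue symbols are saline and red symbols ADC/cmLumiOpto, with circles for replicate 1 and squares for replicate 2. Mmp2 lies at 116.8 and 179.9 CPM in saline and at 38.71 and 42.82 CPM after ADC/cmLumiOpto, whereas Mmp8 and Mmp9 have their lowest or second lowest value in one treated sample and their highest in the other.

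The gelatinase gene Mmp2 (ENSMUSG00000031740, chr8:93553919-93580048 on the plus strand, in the positions listed with the counts) had the largest difference of the 10 by size of its log2 fold change. Its counts were 2878 and 1733 in saline and 683 and 878 after ADC/cmLumiOpto. These correspond to 179.9 and 116.8 CPM in saline and 38.71 and 42.82 CPM after treatment. Neither treated sample reached the lower saline sample, and the treated samples were closer to each other (1.11-fold apart) than the saline samples (1.54-fold apart). The log2 fold change was -1.86 (SE 0.242, 95% interval -2.45 to -1.28, edgeR adjusted p = 0.116). The adjusted p was 2.56e-09 in DESeq2 and 3.33e-07 in the edgeR exact test. Over all alternatives it ranged from 5.33e-15, without the expression filter, to 0.152, with a trend on gene length removed. It was 0.0279 without saline replicate 1 and 0.0425 without saline replicate 2, where the log2 fold changes were -1.53 and -2.14.

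The other gelatinase gene, Mmp9 (ENSMUSG00000017737, chr2:164782700-164797770), did not separate the groups. It measured 210.9 and 109.5 CPM in saline and 117.7 and 404.5 CPM after ADC/cmLumiOpto. One treated sample lay between the saline samples and the other above both. The treated samples differed 3.44-fold, more than for 98.0% of tested genes, so that the 95% interval of the log2 fold change (0.70, SE 0.568) ran from -0.66 to 2.07 (adjusted p = 0.487). Without ADC/cmLumiOpto replicate 2 the log2 fold change was -0.45, and without ADC/cmLumiOpto replicate 1 it was 1.34.

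The collagenase gene Mmp13 (ENSMUSG00000050578, chr9:7272514-7283331) was the only one of the 10 with both treated samples above both saline samples. Its counts were 166 and 93 in saline and 338 and 311 after ADC/cmLumiOpto, or 10.4 and 6.27 CPM against 19.2 and 15.2 CPM. The lower treated sample exceeded the higher saline sample. The log2 fold change was 1.04 (SE 0.324, 95% interval 0.26 to 1.82, edgeR adjusted p = 0.145). Its unadjusted p was no longer under 0.05 without saline replicate 2, with a log2 fold change of 0.73, or without ADC/cmLumiOpto replicate 1, with 0.87. Mmp13 had the lowest level per kilobase of the 10 in both groups, so it was a small part of the summed protease transcripts: 0.895% to 4.54% over the 4 samples.

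Mmp8 (ENSMUSG00000005800, chr9:7558457-7568486), which encodes the collagenase of neutrophil granules, had the widest spread. It measured 31.7 and 70.4 CPM in saline and 18.2 and 194 CPM after ADC/cmLumiOpto. The treated samples were the lowest and the highest of the 4. They differed 10.6-fold, more than for 99.9% of tested genes, and the log2 fold change of 1.06 (SE 0.936) had a 95% interval of -1.19 to 3.31 (adjusted p = 0.527 in edgeR). Its sign rested on 1 sample: the log2 fold change was -1.49 without ADC/cmLumiOpto replicate 2 and 1.93 without ADC/cmLumiOpto replicate 1.

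The stromelysin gene Mmp3 (ENSMUSG00000043613, chr9:7445822-7455975) measured 66.33 and 86.14 CPM in saline and 41.43 and 32.96 CPM after ADC/cmLumiOpto. The higher treated sample was lower than either saline sample. The log2 fold change was -1.04 (SE 0.208, 95% interval -1.53 to -0.54), with an adjusted p of 0.116 in edgeR, against 0.00294 in DESeq2 and 0.00429 in the exact test. Over the alternatives that kept all 4 samples, the adjusted p was lowest without the expression filter (9.33e-05). It was highest with a trend on gene length removed (0.152). When any 1 sample was dropped, the log2 fold change was -1.22 to -0.83. Mmp11 (ENSMUSG00000000901, chr10:75759056-75772330), the furin-activated stromelysin-3, measured 26.4 and 39.0 CPM in saline and 24.6 and 22.1 CPM after treatment. Its groups did not overlap, but the higher treated and the lower saline sample were close, and the log2 fold change was -0.49 (SE 0.237, 95% interval -1.06 to 0.08, adjusted p = 0.267). It was -0.18 without saline replicate 2 and -0.75 without saline replicate 1. Mmp11 overlaps Chchd10 on the opposite strand, which had 48 to 229 counts against 423 to 579 of Mmp11, and whether counting used the strand is not given in the sources used here.

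Mmp3, Mmp8 and Mmp13 lie in one gene cluster on chromosome 9, on the same strand, and differed in direction: Mmp3 was lower and Mmp13 higher after treatment, and Mmp8 was split between the treated samples. The 100 bases before each start are therefore shown together, from RefSeq promoter sequences of build GRCm38.p6, which held 8 of the 10 genes. Mmp2 and Mmp9 had no entry. Capitals mark 2 sets of letters that were searched: the AP-1 motif (TGAGTCA or its reverse complement TGACTCA) and the TATA box letters TATAAA on the gene's strand. The windows lie at chr9:7272414-7272513, chr9:7445722-7445821 and chr9:7558329-7558428, all on the plus strand, 5′ to 3′.
Mmp13: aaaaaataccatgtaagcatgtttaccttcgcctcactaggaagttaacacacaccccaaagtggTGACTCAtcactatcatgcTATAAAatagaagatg
Mmp3: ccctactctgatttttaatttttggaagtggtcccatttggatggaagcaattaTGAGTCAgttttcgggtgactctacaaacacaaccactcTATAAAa
Mmp8: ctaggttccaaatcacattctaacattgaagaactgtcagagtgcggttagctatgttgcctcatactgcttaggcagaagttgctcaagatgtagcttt
Both sets of letters were present before Mmp13 and before Mmp3, and neither before Mmp8. The AP-1 letters began 35 bases before the start of Mmp13 and 46 bases before that of Mmp3, and the TATAAA letters began 16 and 7 bases before it, without overlap between the motifs. In the 250 bases before the start, the AP-1 letters were found in 2 of the 8 genes and in 4.46% of 32851 windows of all RefSeq starts in the table, and TATAAA in 7.59%. Both together stood within 100 bases of the start in 0.116% of all windows. A match describes the letters only. The genes that shared them, Mmp3 and Mmp13, had log2 fold changes of opposite sign.

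Mmp14 (ENSMUSG00000000957, chr14:54669069-54682821), the membrane-anchored activator of MMP2, had the highest level per kilobase of the 7 proteases in saline. It measured 619.6 and 614.6 CPM in saline and 396 and 404.2 CPM after ADC/cmLumiOpto. The groups were far apart relative to their replicates, which differed 1.01-fold in saline and 1.02-fold after treatment; 2.75% and 5.8% of tested genes had closer replicates. The log2 fold change was -0.63 (SE 0.152, 95% interval -0.99 to -0.26), with an adjusted p of 0.123 in edgeR, against 0.0086 in DESeq2 and 0.0544 in the exact test. It was between -0.64 and -0.51 under every alternative tried, although its unadjusted p was no longer under 0.05 without saline replicate 2. A long noncoding RNA gene on the same strand overlaps Mmp14 in part, with 182 to 285 counts against 6987 to 9912 of Mmp14.

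Of the inhibitors, Timp3 (ENSMUSG00000020044, chr10:86136236-86185370), whose protein stays bound to the matrix and also inhibits ADAM proteases, measured 183.2 and 121.7 CPM in saline and 95.16 and 101.7 CPM after ADC/cmLumiOpto. Both treated samples were lower than both saline samples. The log2 fold change was -0.63 (SE 0.226, 95% interval -1.17 to -0.09, edgeR adjusted p = 0.174). Its size depended on saline replicate 1: without that sample the log2 fold change was -0.32. The unadjusted p was no longer under 0.05 there, without ADC/cmLumiOpto replicate 1, or with a trend on gene length removed, where the log2 fold change was -0.43. Timp3 lies wholly inside Syn3 on the opposite strand, a gene with 1 to 12 counts per sample.

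Timp2 (ENSMUSG00000017466, chr11:118191895-118246566), which inhibits MMP2 and also takes part in its activation, had the highest group mean of the 10 per kilobase in both groups. In ADC/cmLumiOpto replicate 1, however, Timp1 was higher, at 179.9 against 146.2 CPM per kilobase. Timp2 measured 764.4 and 873.2 CPM in saline and 569.5 and 667.8 CPM after treatment. The groups did not overlap, with a log2 fold change of -0.40 (SE 0.175, 95% interval -0.82 to 0.02, adjusted p = 0.228). Timp1 (ENSMUSG00000001131, chrX:20736405-20740974), the inducible inhibitor that binds MMP9 and its proenzyme, measured 160.9 and 122 CPM in saline and 159.7 and 86.46 CPM after treatment. Its groups overlapped, with one treated sample next to the higher saline sample and the other below both. The log2 fold change was -0.20 (SE 0.308, 95% interval -0.94 to 0.54, adjusted p = 0.724), and its sign turned without ADC/cmLumiOpto replicate 2 (0.17) and, at 0.000901, without saline replicate 1. Timp1 lies wholly inside Syn1 on the opposite strand, which had 14 to 29 counts against 1773 to 2818 of Timp1.

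**Figure D2:**
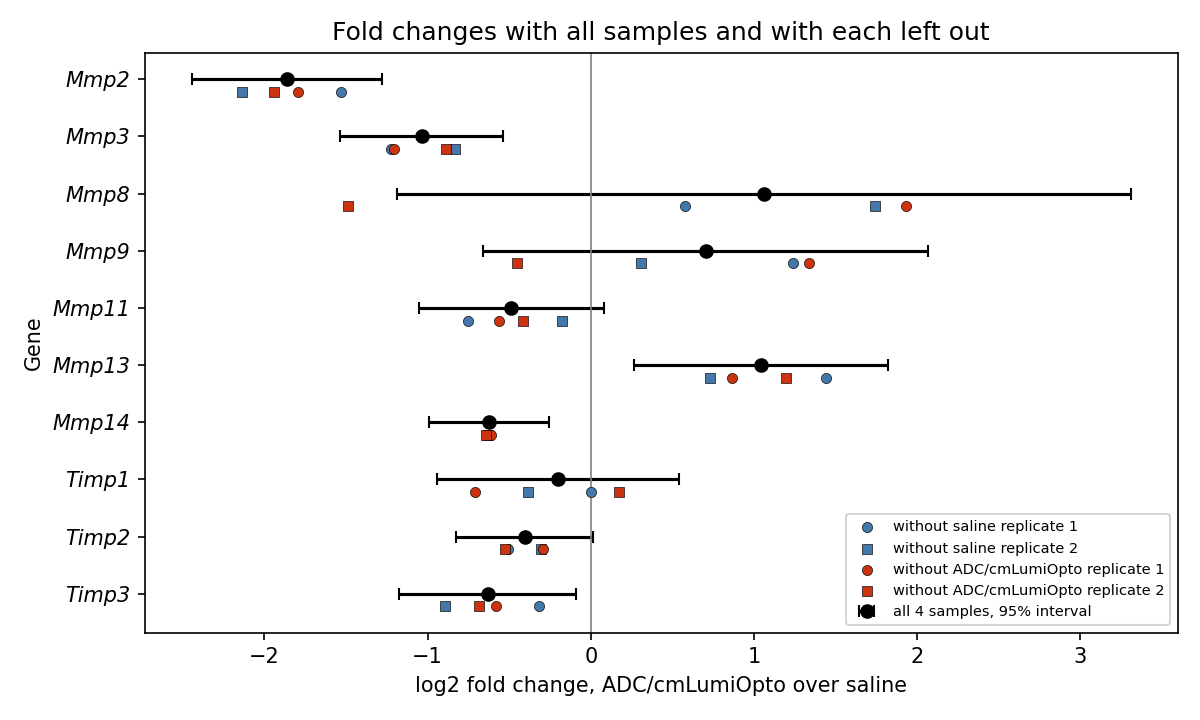
Log2 fold changes of the 10 genes, ADC/cmLumiOpto over saline; black points with bars are the estimates from all 4 samples with 95% intervals, and the small symbols under them leave out 1 sample each. The intervals of Mmp2, Mmp3, Mmp14 and Timp3 lie below 0 and that of Mmp13 above it, and the estimates for Mmp8 and Mmp9 are -1.49 and -0.45 without ADC/cmLumiOpto replicate 2.

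Levels were compared between genes as CPM per kilobase of gene length. In saline, Timp2 (210.1 ± 19.7 CPM per kilobase, mean ± SD, n = 2), Timp1 (159.2 ± 30.9) and Mmp14 (103.5 ± 0.636) stood in that order without overlap between their samples. Mmp9 (45.3 ± 20.3), Mmp2 (44.0 ± 13.2) and Mmp3 (42.3 ± 7.78) came next, and each overlapped its neighbour in the order. Mmp8 (21.0 ± 11.3) overlapped Timp3 (18.7 ± 5.35), and Mmp11 (11.8 ± 3.20) and Mmp13 (3.11 ± 1.09) were last, each below the gene before it in both samples. After ADC/cmLumiOpto, Timp2 (158.8 ± 17.8), Timp1 (138.6 ± 58.4), Mmp9 (73.8 ± 57.3), Mmp14 (67.1 ± 0.976) and Mmp8 (43.8 ± 51.2) formed a chain in which each overlapped the next. Mmp8 in turn overlapped Mmp3 (20.6 ± 3.32). Mmp2 (12.1 ± 0.863) was below Mmp3 in both samples and overlapped Timp3 (12.1 ± 0.566). Mmp11 (8.41 ± 0.626) and Mmp13 (6.42 ± 1.05) remained the last in order.

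The share of each enzyme in the summed protease transcripts per kilobase differed between samples. Mmp2 made up 19.1% and 13.2% of the sum in saline and 7.28% and 4.14% after ADC/cmLumiOpto. Mmp14 made up 37.1% to 42.1% of it in 3 samples and 22.1% in ADC/cmLumiOpto replicate 2, where Mmp9 (37.3%) and Mmp8 (26.1%) together outweighed it. Timp2 and Timp1 accounted for nearly all of the inhibitor sum, and Timp3 for 3.46% to 5.63%.

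The balance of protease and inhibitor was described by 7 ratios of CPM per kilobase, of which 6 were planned. The sum of the 7 proteases over the sum of the 3 inhibitors was 0.701 and 0.696 in saline and 0.467 and 1.09 after ADC/cmLumiOpto. The treated samples thus lay on either side of the saline samples, with a mean difference of 0.03 on the log2 scale (exact permutation p = 1.0, two-sided). Without Mmp8 and Mmp9, a sum chosen after the values were seen, the ratio was 0.519 and 0.537 in saline and 0.346 and 0.400 after treatment. Both treated samples were then lower, with a log2 difference of -0.50 (exact permutation p = 0.333, the smallest this design can give). For the gelatinase and its inhibitor, Mmp2/Timp2, the ratio was 0.272 and 0.155 in saline and 0.0786 and 0.0741 after treatment, a log2 difference of -1.43 (exact permutation p = 0.333). Mmp9/Timp1 was 0.329 and 0.225 in saline and 0.185 and 1.17 after treatment. Its groups overlapped (log2 difference 0.77, exact permutation p = 1.0). The log2 difference was 1.33 for Mmp13/Timp1, -0.78 for Mmp3/Timp1 and -0.22 for Mmp14/Timp2, each without overlap and each at the smallest exact permutation p of 0.333. When any 1 sample was dropped, these differences ranged from 1.06 to 1.61, from -1.17 to -0.39 and from -0.32 to -0.12. The Mmp3/Timp1 value was nearest to 0 without saline replicate 2 (-0.39) and without ADC/cmLumiOpto replicate 1 (-0.50), and Mmp14/Timp2 without saline replicate 1 and without ADC/cmLumiOpto replicate 2 (-0.12 each). Adjustment over the 7 ratios could only raise these p-values.

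**Figure D3:**
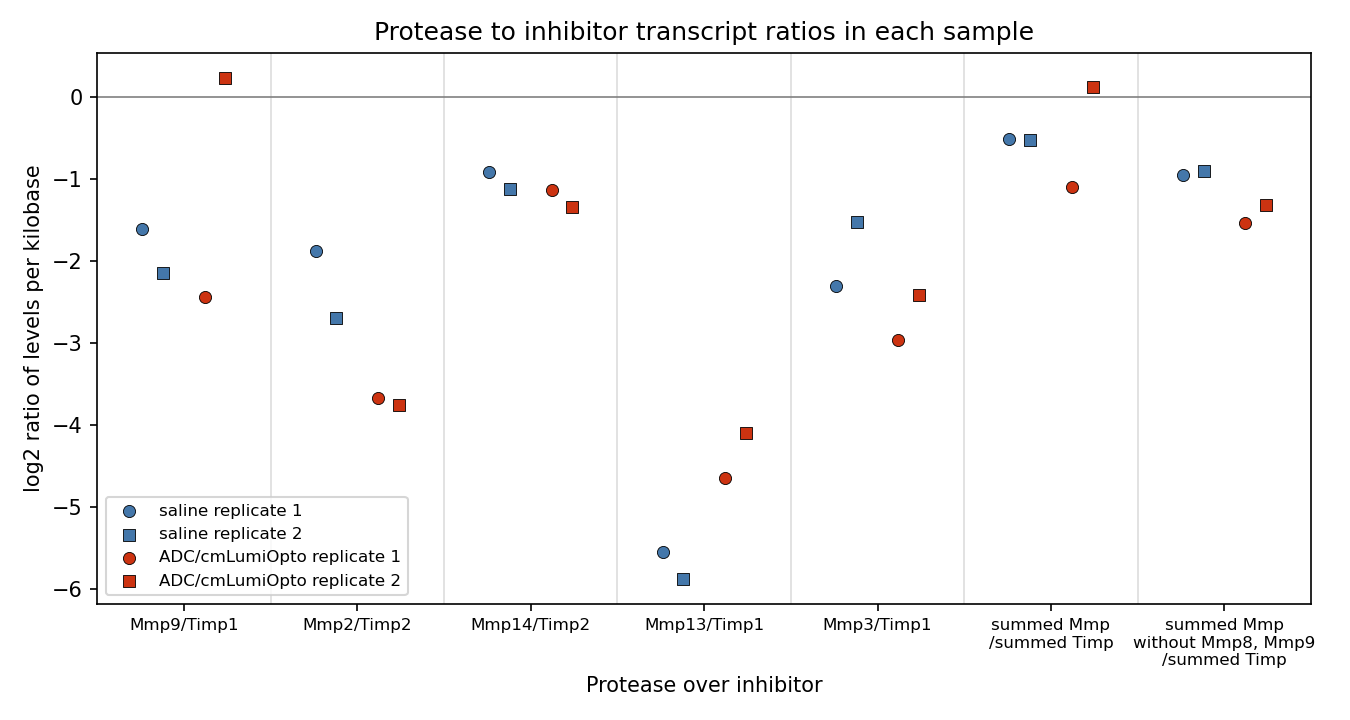
Log2 ratios of protease over inhibitor transcripts per kilobase in each sample, with saline in blue and ADC/cmLumiOpto in red, circles for replicate 1 and squares for replicate 2. Mmp2/Timp2 is lower in both treated samples, and the summed ratio is lowest in ADC/cmLumiOpto replicate 1 (0.467 on the linear scale) and highest in ADC/cmLumiOpto replicate 2 (1.09).

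Markers of the cells that are known to make these proteases moved with some of them. The 11 neutrophil markers summed to 1354 and 551 CPM in saline and to 1326 and 8828 CPM after ADC/cmLumiOpto. All 11 had a higher log2 fold change, 8 of them at an unadjusted p under 0.05 (11.0% of all tested genes). Only 5 of the 11 did not overlap between the groups, against 57.0% of all tested genes. None was at 0, and Elane was the lowest at 0.944 to 2.88 CPM. The sample with the highest sum was also the highest for Mmp8 and Mmp9. Within saline, Mmp9 was higher in the sample with the higher neutrophil sum and Mmp8 was higher in the other sample. ADC/cmLumiOpto replicate 1 and saline replicate 1 had like neutrophil sums, 1326 and 1354 CPM, and Mmp9 was 117.7 and 210.9 CPM in them and Mmp8 18.2 and 31.7 CPM. S100a8 and S100a9 held most of the sum in every sample, and other markers differed between these samples in both directions. In the same order, Camp was at 29.1 and 15.2 CPM and Ngp at 85.1 and 140.7 CPM. The like sums therefore do not show that the samples had like numbers of neutrophils. The part of neutrophils in the Mmp8 and Mmp9 values was not tested.

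**Figure D4:**
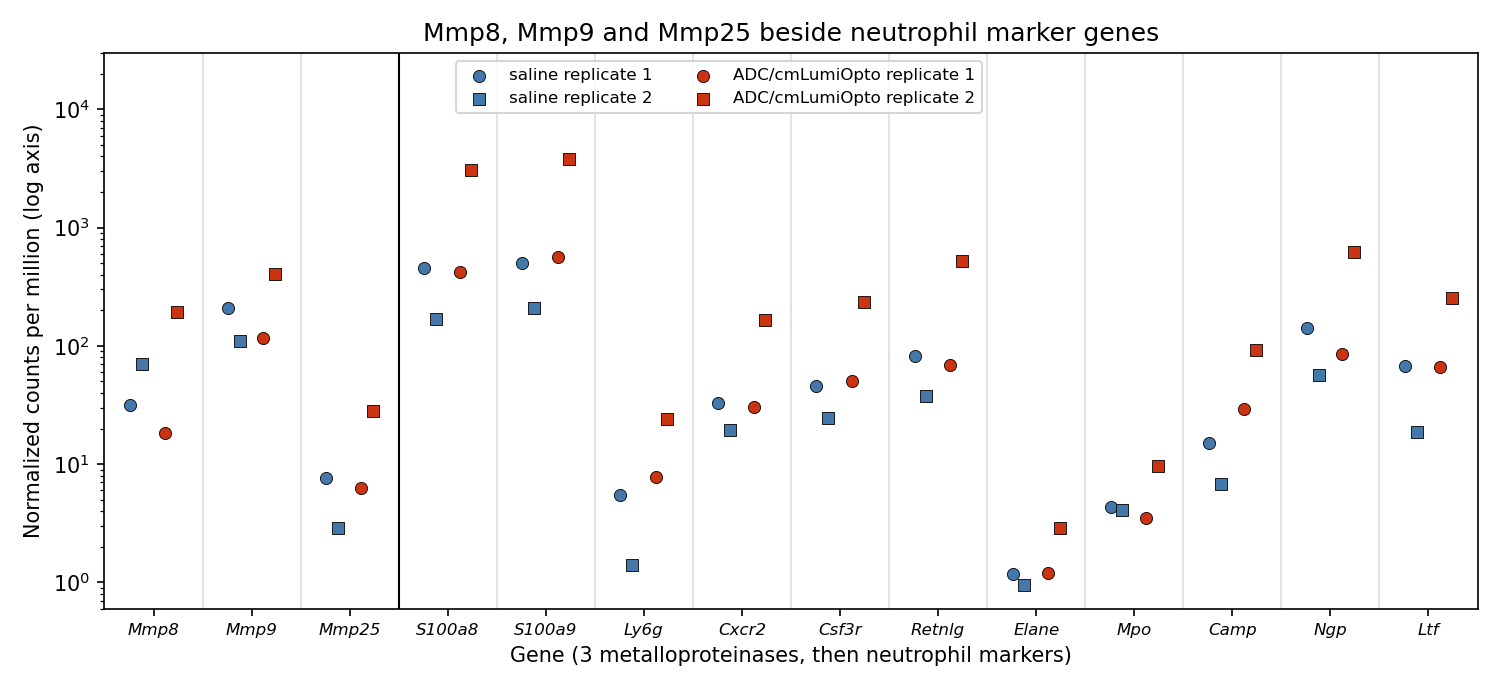
CPM (normalized counts, log axis) of Mmp8, Mmp9 and Mmp25 (left of the black line) and of 11 neutrophil markers in each sample, with saline in blue and ADC/cmLumiOpto in red, circles for replicate 1 and squares for replicate 2. ADC/cmLumiOpto replicate 2 is highest for all 14 genes, and Mmp8 alone is higher in saline replicate 2 than in saline replicate 1.

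The 10 fibroblast markers summed to 5245 and 3599 CPM in saline and to 1868 and 1580 CPM after treatment. Of these, 8 had a lower log2 fold change, 7 of them at an unadjusted p under 0.05 (12.2% of all tested genes). The collagen genes Col1a1 (-2.02), Col1a2 (-1.40) and Col3a1 (-1.13) held most of the sum in every sample. Of the others, Lum was at -2.135, Pdgfra at -0.81, Pdgfrb at -0.58, Dcn at -0.50 and Fap at -0.08. Postn was at 0.29, and Dpt, which encodes dermatopontin, was at 1.61. The sum therefore follows collagen transcripts more than the other markers. None was at 0, and Fap was the lowest at 1.46 to 2.83 CPM. Mmp2 stood at -1.86, Mmp3 at -1.04, Mmp14 at -0.63 and Timp3 at -0.63 beside these markers, and the part of fibroblasts in their values was not tested. The 5 tumor epithelial markers summed to 2543 and 2910 CPM in saline and to 2470 and 2378 CPM after treatment. By log2 fold change 2 were higher and 3 lower, and Krt14 (-0.62) alone had an unadjusted p under 0.05 (12.2% of all tested genes as lower). Since airway epithelium also makes Krt8, the sum does not measure tumor cells alone. Alveolar and airway markers summed to 2649 and 405 CPM in saline and to 11530 and 7674 CPM after treatment. All 7 were higher, each at an unadjusted p under 0.05 (11.0% of all tested genes as higher). The endothelial markers summed to 407 and 310 CPM in saline and to 425 and 655 CPM after treatment. By log2 fold change 5 of 5 were higher, 3 of them at an unadjusted p under 0.05 (11.0% of all tested genes). The leukocyte markers summed to 98.1 and 60.3 CPM in saline and to 163 and 196 CPM after treatment. All 4 that were tested were higher. Ptprc, which encodes CD45, was at 1.25 and alone had an unadjusted p under 0.05 (11.0% of all tested genes as higher). The part of these cells in the values of the 10 genes was not tested either.

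The 16 other Mmp genes were counted in the same way, and 10 of them were tested. In these, 2 were higher and 0 lower at an unadjusted p under 0.05 in edgeR (23.2% of all tested genes in either direction), with a median log2 fold change of 0.01. With the length trend removed 2 were higher and 2 lower, where 19.8% of all tested genes stood at an unadjusted p under 0.05 in either direction. Mmp12, the macrophage elastase, measured 38.8 and 23.9 CPM in saline and 78.5 and 95.8 CPM after ADC/cmLumiOpto. Both treated samples were above both saline samples, with a log2 fold change of 1.48 (SE 0.262, adjusted p = 0.116). The 8 macrophage markers did not separate the groups in their sum, which was 1844 and 1584 CPM in saline and 2221 and 1648 CPM after treatment. Single markers differed in direction, with 5 higher and 3 lower by log2 fold change. Of the 8, 3 did not overlap between the groups, against 57.0% of all tested genes. Mrc1 (log2 fold change -0.98) was lower in both treated samples, and Cd68 (0.36) and C1qb (0.51) were higher in both. Marco, a scavenger receptor of alveolar macrophages, was at 0.375 to 0.876 CPM, and the part of macrophages in Mmp12 was not tested. Mmp15, a membrane-anchored enzyme of epithelia, measured 15.4 and 12.9 CPM in saline and 25.2 and 25.9 CPM after treatment (log2 fold change 0.85, SE 0.211, adjusted p = 0.123). Thus the membrane-anchored enzymes differed in direction, with Mmp14 lower and Mmp15 higher by their log2 fold changes.

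Mmp25, the membrane-anchored enzyme of neutrophils, measured 7.69 and 2.90 CPM in saline and 6.29 and 28.4 CPM after treatment. As for Mmp9, one treated sample lay between the saline samples and the other above both (log2 fold change 1.71, SE 0.753, adjusted p = 0.234). Mmp10, the stromelysin nearest in role to MMP3, had a log2 fold change of -0.73, Mmp23 of -0.79 and Mmp1a, an interstitial collagenase, of -1.09 (adjusted p between 0.244 and 0.348). These 3 did not overlap between the groups, against 57.0% of all tested genes (28.8% as lower), and none passed an unadjusted p of 0.05. Mmp1a was near the filter, with 11 and 10 counts in saline and 6 and 6 after treatment. Mmp17, Mmp19, Mmp24 and Mmp28 overlapped, with log2 fold changes of 0.42, -0.51, 0.25 and -0.24 and an adjusted p between 0.532 and 0.861. Mmp1b, Mmp16 and Mmp27 had 0 to 7 counts per sample and were not tested. Mmp7, Mmp20 and Mmp21 had 0 counts in every sample, which allows at most 0.197 CPM in the shallowest.

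Of the 4 other inhibitors, 2 were tested. Reck, a membrane-anchored inhibitor of MMP9, MMP2 and MMP14, measured 15.1 and 15.8 CPM in saline and 12.9 and 19.2 CPM after treatment (log2 fold change 0.05, 95% interval -0.60 to 0.70). Tfpi2, an inhibitor of plasmin, had a log2 fold change of 0.17 (95% interval -0.73 to 1.06). Both overlapped between the groups. Timp4 had 2 and 0 counts in saline and 7 and 9 after treatment, and A2m, which traps proteases of all classes, had 40 and 6 against 5 and 5, and neither passed the expression filter.

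Activation of several MMP proenzymes runs through plasmin, which urokinase and tissue plasminogen activator release from plasminogen. Of 9 genes of this system and of the convertases, 8 were tested, and 4 were lower (12.2% of all tested genes) and 0 higher (11.0%) at an unadjusted p under 0.05. The count was 2 with upper-quartile scaling, where 23.1% of all tested genes stood at an unadjusted p under 0.05 in either direction. It was also 2 with at least 10 counts required in every sample, where 23.7% did. Plat, the tissue activator, measured 94.96 and 158 CPM in saline and 44.4 and 68.4 CPM after treatment (log2 fold change -1.16, SE 0.311, adjusted p = 0.124). Plau, the urokinase, had a smaller log2 fold change, -0.40 (SE 0.157, adjusted p = 0.200). Both activators were lower in both treated than in both saline samples. Plg, the plasminogen gene itself, had 0 counts in every sample.

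Among 11 partners that bind MMPs or TIMPs at the cell surface or carry them, 1 was higher (11.0% of all tested genes) and 5 lower (12.2%) at an unadjusted p under 0.05. These were 0 and 3 with the length trend removed, where 19.8% of all tested genes stood at an unadjusted p under 0.05 in either direction. Thbs2, a matricellular thrombospondin that binds MMP2 for clearance, measured 114 and 120 CPM in saline and 64.1 and 44.0 CPM after treatment (log2 fold change -1.11, SE 0.218, adjusted p = 0.116). Lrp1, the endocytic receptor that clears MMPs and TIMPs, was at -1.10 (SE 0.226, adjusted p = 0.116) and Thbs1 at -1.06 (SE 0.235, adjusted p = 0.116). These 3 were again lower in both treated samples. The 21 ADAM and ADAMTS genes are a sister family of metalloproteinases that TIMP3 inhibits. Of them, 1 was higher (11.0% of all tested genes) and 5 were lower (12.2%) at an unadjusted p under 0.05. With the length trend removed these were 3 and 5, against the same 19.8% of all tested genes. Adamts12 measured 52.6 and 35.4 CPM in saline and 10.1 and 13.1 CPM after treatment, a log2 fold change of -1.92 (SE 0.265, adjusted p = 0.116). Adamts9 was at -0.95 (SE 0.159, adjusted p = 0.116), and Adamts2, which trims the ends of fibrillar procollagens, was at -1.12 (SE 0.194, adjusted p = 0.116). Over the 5 lists, 18 of 52 tested genes stood at an unadjusted p under 0.05 (23.2% of all tested genes), with 4 higher (11.0%) and 14 lower (12.2%). No gene of these lists had an adjusted p under 0.05 in edgeR's quasi-likelihood test.

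**Figure D5:**
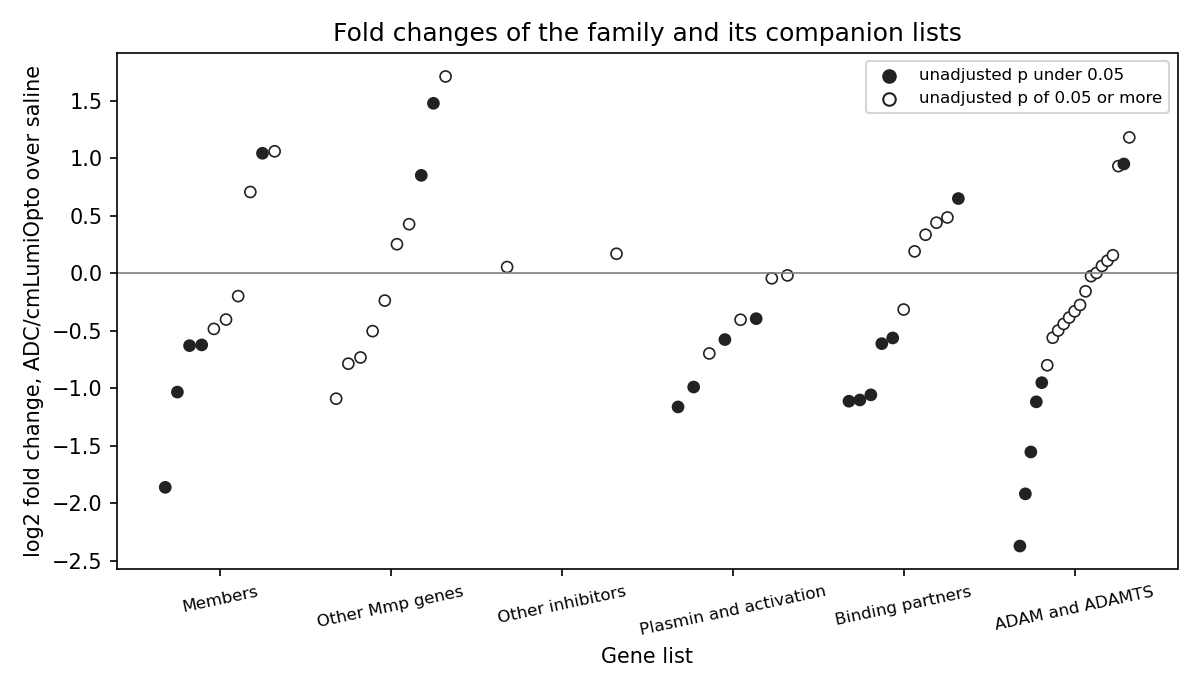
Log2 fold changes, ADC/cmLumiOpto over saline, of the tested genes of each list, with filled points for an unadjusted p under 0.05 in edgeR's quasi-likelihood test. The first column holds the 10 genes described above, with Mmp2 lowest at -1.86; among the other Mmp genes, Mmp12 (1.48) and Mmp15 (0.85) are the filled points.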

How the data were processed

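Bulk RNA sequencing of 2 saline and 2 ADC/cmLumiOpto samples was used. The authors deposited raw counts, whole numbers of reads per gene for 56748 genes, without normalization. The study's methods name HISAT2 and GRCm38, and the submitters' processing notes list HISAT2, HISAT and TopHat2 with mm39. Positions are given as deposited. They did not match GRCm38 at Timp1, whose deposited start was chrX:20736405. The GRCm38.p6 promoter window before Timp1 ended at chrX:20870165. The deposited positions should therefore not be looked up in GRCm38. The counting program and its strand setting are not given in the sources used here. Overlapping genes could therefore share reads.

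The deposited counts were tested with edgeR 4.0.16 (R 4.3.3): filterByExpr (minimum count 10, minimum total 15), TMM normalization, glmQLFit and glmQLFTest, and Benjamini-Hochberg adjustment over 15320 genes with a threshold of 0.05. CPM used the TMM-scaled library size. DESeq2 1.42.0, the edgeR exact test, other scalings and filters, a length trend correction, a replicate block and leaving out each sample were alternatives. The scripts were tested on simulated data. Ratios were compared by exact permutation with scipy 1.17.1.

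The genes and lists were chosen with earlier results of these data known. Named were the 10 members, all other Mmp and inhibitor genes listed, and the 3 genes with the smallest p in each of the plasmin, binding partner and ADAM/ADAMTS lists. Overlapping genes and single cell markers were named beside the values they touch, after their values were seen. Some listed genes are not reported here. Samples sharing a replicate number belonged to different groups and mice. The replicate differences of the groups correlated at 0.0985 across genes, which cannot show whether the numbers paired the samples. No label gives a pairing, so the samples were treated as unpaired.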

Additional observations from a re-analysis of the deposited data

How the results depend on the processing

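Over 12 alternatives, 120 log2 fold changes of the 10 genes were computed. Of these, 100 kept their direction and their side of the adjusted threshold, 16 passed the threshold in the same direction, and 4 changed sign. The sign changes were Mmp8 (-1.49), Mmp9 (-0.45) and Timp1 (0.17) without ADC/cmLumiOpto replicate 2, and Timp1 (0.000901) without saline replicate 1. Over the 4 fits with a sample left out, these genes ranged from -1.49 to 1.93, from -0.45 to 1.34 and from -0.71 to 0.17. At an adjusted p under 0.05, DESeq2 called 1353 genes and 3 of the 10, the exact test 1170 genes and 2 of the 10, and edgeR without the filter 2259 of 25563 genes (8.84%) and 7 of the 10, among them Mmp8, Mmp9 and Mmp13 as higher. Leaving out the filter changed the SE of Mmp8 from 0.936 to 0.215 and that of Mmp9 from 0.568 to 0.204, and that of Mmp14 from 0.152 to 0.194. The cause of these differences between tools was not tested. Without the filter, 9 of the 10 genes and 29 of the companion genes had an unadjusted p under 0.05, against 4801 of 25563 genes (18.8%). With a sample left out, a lone sample was assumed to vary like the other group. Over these 4 fits, 0 to 218 genes and 0 to 1 of the 10 passed the adjusted threshold, and 1687 to 3654 genes, 3 to 7 of the 10 and 15 to 26 companion genes stood at an unadjusted p under 0.05. The lowest counts of genes and members at an unadjusted p came without saline replicate 2 (1687 and 3), and the 218 without saline replicate 1. Without ADC/cmLumiOpto replicate 2 the log2 difference of Mmp9/Timp1 was -0.56 and that of the summed ratio -0.58, and over the 4 fits they ranged from -0.56 to 2.11 and from -0.58 to 0.64. Without the filter, the unadjusted counts were 5 for the other Mmp genes, 10 for ADAM/ADAMTS and 1 for the other inhibitors, which had 1 also without saline replicate 2. With upper-quartile scaling, 2146 genes were higher and 1398 lower at an unadjusted p under 0.05, against 1690 and 1863, and the members' count stayed at 5.

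The replicate number as a block gave 607 called genes (3.96%) and 2 of the 10, Mmp2 (adjusted p = 0.0115) and Mmp3 (0.0406). The samples shared only a number, and no label gives a pairing, so the block is not part of the stated design. The replicate differences of the groups correlated at 0.0985 across genes, which does not test for a shared batch.

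With 2 samples per group, a difference such as that of Timp2 (95% interval -0.82 to 0.02) could not be placed on either side of 0, and the intervals of Mmp8 and Mmp9 include changes of more than 2 on the log2 scale. Depth was not limiting for the 10 genes, which had at least 93 counts in every sample.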
